A study of Mus musculus with 10 samples.

Results

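OR51E1, OR51E2 and OR51A9P are neighbours on the short arm of chromosome 11 in band 11p15, inside one of the large human clusters of olfactory receptor genes. They were chosen by gene symbol, and their rows are 3 of the 58735 human genes in the deposited count table. The choice was made with their group values already known, so the differences between groups given for these 3 genes are descriptions of these libraries. Correlations over both groups hold the same differences. The samples were subcutaneous tumours, labelled skin tumor, of LNCaP, an established line of human prostate cancer cells that respond to androgen, in mice of the genotype NOD.Cg-Prkdcscid Il2rgtm1Wjl/SzJ, which lack T, B and NK cells of their own. In the IL-15 group, 5 libraries came from tumours of mice labelled as given control sip-T with rhIL-15 (1 µg), the recombinant form of a cytokine on which T and NK cells depend. In the control group, 5 libraries came from tumours of mice given control sip-T alone, and in both groups the cells were injected into the peritoneum in 100 µl of PBS. Control mice also received a sham dose of vehicle, per the design text. Tissue was collected on day 7 after the final dose. Sip-T (sipuleucel-T) is a human blood cell product activated against prostatic acid phosphatase. The series' design mentions sip-T treated with IL-15 and also IL-15 given by injection, so treatment of the cells and injection of the cytokine cannot be told apart, and nothing labels the tumours by donor or says that each came from a separate mouse. The p-values below therefore measure only the spread between these libraries.

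OR51E1 and OR51E2 encode G protein-coupled receptors of the olfactory receptor family. In the olfactory epithelium such receptors couple to the G protein subunit encoded by GNAL, which turns on adenylyl cyclase and opens a cyclic nucleotide-gated channel. Both genes are known outside the nose for their expression in the human prostate, hence their other names, prostate-specific G protein-coupled receptor 2 for OR51E1 and prostate-specific G protein-coupled receptor for OR51E2. OR51E1 responds to medium-chain fatty acids such as nonanoic acid. OR51E2 responds to short-chain fatty acids such as acetate and propionate and to the odorant β-ionone. OR51A9P is a pseudogene of the same subfamily and is annotated as unitary, which means that it has no functional copy elsewhere in the genome.

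In hg38, by the coordinates of the deposited table, OR51E1 (ENSG00000180785) occupies positions 4643420 to 4655488 of chromosome 11 on the plus strand. OR51A9P (ENSG00000180723) lies on the minus strand at positions 4660853 to 4661763, with 5365 bp between it and the end of OR51E1. OR51E2 (ENSG00000167332) lies on the minus strand at positions 4680171 to 4697854, another 18408 bp along. The 3 genes together span 54435 bp, and their sequences are not used here. The files do not give the strand setting of the counting, so reads of genes that overlap on opposite strands may not have been separated. By the deposited coordinates no listed gene overlaps any of these 3 on the other strand.

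All libraries held human prostate luminal cells by their markers. The 6 luminal genes KRT8, KRT18, EPCAM, KLK3, HOXB13 and FOLH1 were all measured, with a summed level of 6126 to 10066 CPM (read counts scaled to library size, with TMM factors) in IL-15 tumours and 5867 to 8314 CPM in control tumours. The basal marker TP63 had 0 counts in every library, and KRT5 had 7 counts over the IL-15 libraries and 1 over the control libraries, whereas KRT14, also counted among basal genes, averaged 45.2 ± 21.1 and 44.4 ± 24.9 CPM (SD, n = 5 each). Library totals ran from 13560224 to 19324056 counts, which puts a limit of 3 counts at 0.155 to 0.221 CPM. Of the 16913 genes tested between the groups, edgeR called 0 at an adjusted p of 0.05. At the same adjusted p limma voom called 0 and DESeq2 called 15. At an unadjusted p under 0.05 edgeR had 580 lower and 512 higher genes (3.43% and 3.03%). The sample labels give mouse as the organism although the deposited table holds human genes, and the sources used here do not say whether mouse reads were removed.

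OR51E1 was by far the most abundant olfactory receptor gene in these tumours. Per length, its mean level over the 10 libraries was 65.0 FPKM (fragments scaled by gene length and library total), which ranked 459 among the 18388 protein-coding genes with any signal. Its level was 8.84, 103, 14.96, 45.8 and 23.1 FPKM in IL-15 tumours 1 to 5, against 64.5, 50.5, 91.4, 121 and 127 FPKM in control tumours 1 to 5. Of the IL-15 tumours, 4 lay below the lowest control tumour, while IL-15 tumour 2 lay within the range of the control tumours. The raw counts behind these levels were 516, 7703, 982, 2562 and 1244 in IL-15 tumours, against 4065, 2836, 5225, 8171 and 7103 in control tumours, so counting error was small beside the spread between tumours.

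OR51E2 was far scarcer than OR51E1. It had 0.319, 1.48, 0.928, 1.29 and 0.971 FPKM in IL-15 tumours 1 to 5, against 1.62, 0.509, 3.00, 2.17 and 5.88 FPKM in control tumours 1 to 5. The groups overlapped: control tumour 2 lay below 4 of the IL-15 tumours, and control tumour 5 stood highest. All 5 IL-15 tumours lay below the control median. With a mean of 1.82 FPKM over all libraries, OR51E2 ranked 9718 among protein-coding genes and 5th among olfactory receptor genes and pseudogenes. Counts ran from 15 to 89 in IL-15 tumours and from 23 to 265 in control tumours, and the exact 95% Poisson interval of the lowest, 15 counts, was 8.40 to 24.7, which covers counting error only.

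OR51A9P, although a pseudogene, was the olfactory receptor entry with the second highest level per length, at a mean of 4.49 FPKM. It had 1.36, 3.02, 1.93, 2.34 and 3.76 FPKM in IL-15 tumours 1 to 5, against 4.85, 4.80, 9.29, 7.40 and 6.16 FPKM in control tumours 1 to 5. The highest IL-15 value, in tumour 5, was lower than the lowest control value, in tumour 2. Such a gap was found in 0.313% of all tested genes and the opposite gap in 0.349%, and since the gene was chosen with these values known nothing is read from that share. Its counts were 20, 57, 32, 33 and 51 in IL-15 tumours and 77, 68, 134, 126 and 87 in control tumours.

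**Figure D1:**
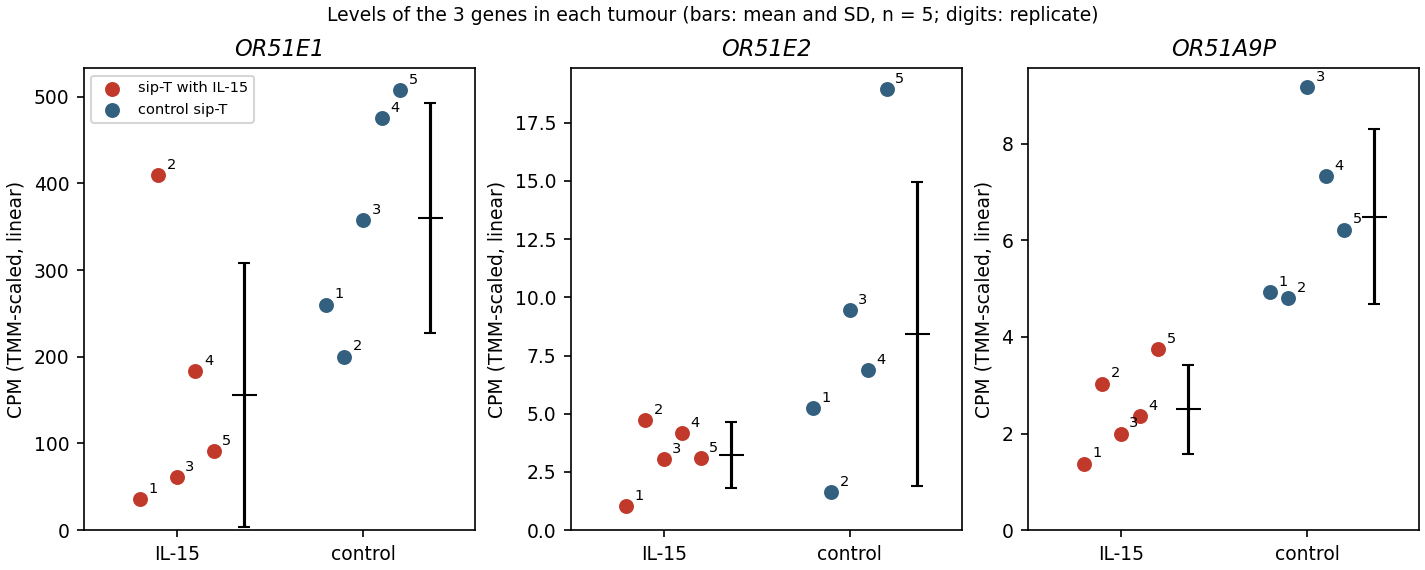
Level of OR51E1, OR51E2 and OR51A9P (CPM, TMM-scaled, linear axis from 0) in each of 5 IL-15 and 5 control tumours, with the mean and SD beside the points. For OR51A9P the groups do not overlap, for OR51E1 IL-15 tumour 2 stands among the control tumours, and for OR51E2 control tumour 2 stands among the IL-15 tumours.

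All 3 genes had lower mean levels in IL-15 than in control tumours, and edgeR called none of them, as it called 0% of all tested genes. OR51E1 averaged 156 ± 152 CPM in IL-15 tumours and 360 ± 133 CPM in control tumours (SD, n = 5 each), a log2 fold change of -1.20 ± 0.62 (SE, edgeR adjusted p = 0.774). OR51E2 averaged 3.21 ± 1.41 CPM in IL-15 tumours and 8.42 ± 6.53 CPM in control tumours, a log2 fold change of -1.38 ± 0.55 (edgeR adjusted p = 0.758). OR51A9P averaged 2.50 ± 0.918 CPM in IL-15 tumours and 6.49 ± 1.82 CPM in control tumours, a log2 fold change of -1.37 ± 0.30 (edgeR adjusted p = 0.758). A log2 fold change at or below -1, which all 3 genes had, was found in 1.01% of tested genes, and one below 0 in 51%. In bulk tumour RNA, fewer cells that express a gene and less of its RNA per cell cannot be told apart.

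The pseudogene was the member on which the tools differed. OR51A9P had the smallest unadjusted edgeR p (5.12e-04) among the 8621 genes with a log2 fold change below 0. The gene was chosen with its group values known, so nothing is read from this rank or from its DESeq2 call. DESeq2 gave OR51A9P a log2 fold change of -1.38 ± 0.30 with an adjusted p of 0.0166. It was one of 3 lower and 12 higher genes called by that tool, or 0.0714% of the 21021 genes for which DESeq2 gave an adjusted p. The other lower genes were HSPB8, a small heat shock protein, and KIF26B, a kinesin family member. The DESeq2 call of OR51A9P held without IL-15 tumour 2 or 5 or control tumour 1 or 4. The lowest DESeq2 adjusted p among these was 0.00225, without IL-15 tumour 5. The call was lost without any single one of the other 6. These were IL-15 tumours 1 (DESeq2 adjusted p = 0.164), 3 (0.0967) and 4 (0.0670), and control tumours 2 (0.0678), 3 (0.0643) and 5 (0.0633). In all these fits the log2 fold change of OR51A9P stayed between -1.22 and -1.57.

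For OR51E1 a single tumour set much of the size of the difference. Without IL-15 tumour 2 its log2 fold change was -1.94 ± 0.47 with an edgeR adjusted p of 0.453, and DESeq2, which had not called it with all libraries (adjusted p = 0.686), gave -1.96 with an adjusted p of 0.00262. For OR51E2 the largest shift came from control tumour 5, without which the log2 fold change was -0.84. DESeq2 did not call OR51E2 with all 10 libraries (adjusted p = 0.395). Across every setting and every library left out, the log2 fold changes of the 3 genes stayed below 0.

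**Figure D2:**
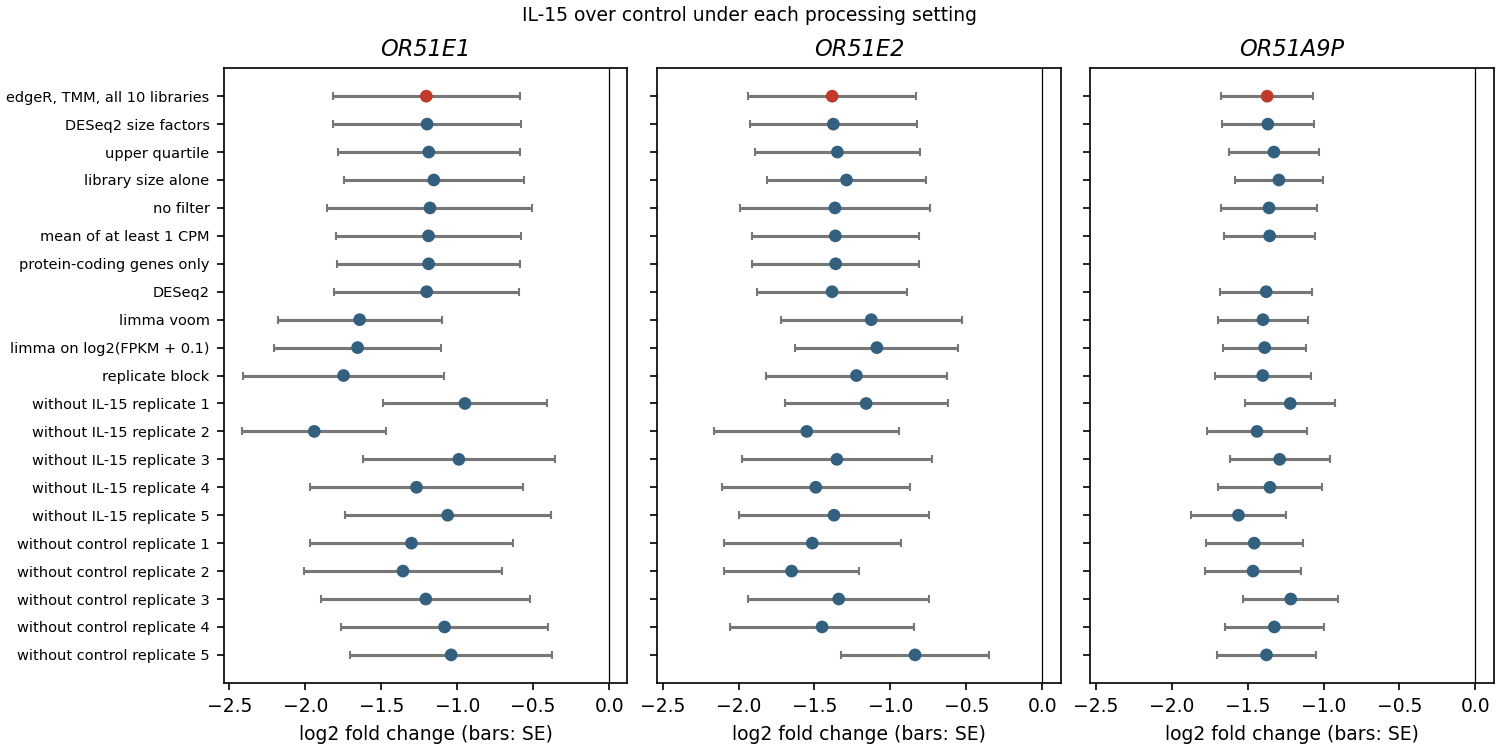
Log2 fold change, IL-15 over control, with its SE for each of the 3 genes under each processing setting and with each library left out. All values lie below 0, and OR51E1 moves most, to -1.94 without IL-15 tumour 2 and to -0.95 without IL-15 tumour 1.

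OR51E1 varied between tumours more than nearly all genes of its abundance. Within the IL-15 group its highest CPM was 11.5 times its lowest and its coefficient of variation was 97.4%, against 2.53 times and 36.9% in the control group. Its biological coefficient of variation in the edgeR fit, the spread within groups beyond counting error, was 0.644. The median was 0.197 over the 1438 tested genes within 2-fold of its mean CPM, and only 12 of them, 0.834%, had a larger value. OR51E2 had a value of 0.591, against a median of 0.331 over 3088 genes of like abundance, of which 7.77% exceeded it. OR51A9P had 0.345, and 1555 of 3050 genes of like abundance had a larger value, so its spread was ordinary for its level.

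Leukocyte markers also varied between the tumours. The summed level of the 6 leukocyte genes PTPRC, CD3E, CD3D, CD8A, NKG7 and CD14 was 27.2, 3.93, 18.1, 13.4 and 5.44 CPM in IL-15 tumours 1 to 5, against 2.69, 3.25, 11.3, 1.51 and 3.57 CPM in control tumours 1 to 5. IL-15 tumours 1 and 3, with the lowest OR51E1, had the highest leukocyte sums, and IL-15 tumour 2, with OR51E1 in the control range, had the lowest sum of its group. IL-15 tumour 5 did not follow this order, with the third lowest OR51E1 of its group and the second lowest leukocyte sum. Control tumour 3 had the highest leukocyte sum of its group with the highest OR51A9P. Of the 6 genes, CD8A, NKG7 and CD14 passed the low-count filter, all above 0 and none called by edgeR. CD8A averaged 6.18 ± 4.28 CPM in IL-15 tumours and 1.59 ± 1.49 CPM in control tumours (1.95 ± 0.65 on the log2 scale). NKG7 averaged 2.33 ± 2.15 and 0.975 ± 0.809 CPM (1.25 ± 0.66), whereas CD14 averaged 0.764 ± 0.288 and 0.740 ± 0.529 CPM (0.06). PTPRC, CD3E and CD3D did not pass. They had 192, 81 and 49 counts over the IL-15 libraries and 54, 19 and 12 over the control libraries. The part of leukocyte content in the levels of OR51E1, OR51E2 and OR51A9P was not tested.

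The balance between the receptors was kept only loosely. Per length, OR51E1 stood at 27.7, 69.7, 16.1, 35.6 and 23.8 times OR51E2 in IL-15 tumours 1 to 5, against 39.9, 99.2, 30.5, 55.7 and 21.6 times in control tumours 1 to 5. The mean ratio was 34.6 ± 20.8 in IL-15 tumours and 49.4 ± 30.6 in control tumours, a difference smaller than the SD of either group. The highest ratio of each group belonged to tumour 2, through a high OR51E1 in the IL-15 tumour and a low OR51E2 in the control tumour. OR51A9P counts amounted to 3.88, 0.740, 3.26, 1.29 and 4.0997% of OR51E1 counts in IL-15 tumours 1 to 5, against 1.89, 2.40, 2.56, 1.54 and 1.22% in control tumours 1 to 5. The pseudogene was therefore not a fixed share of its neighbour's reads.

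Over the 10 tumours 2 of the 3 pairs of these genes passed an adjusted p of 0.05, both close to that threshold. The genes were chosen with their lower means in IL-15 tumours known, so r over both groups partly holds that choice. The permutations exchanged libraries between the groups, except after centring on group means, when only OR51E1 with OR51E2 passed. On log2 CPM, OR51E1 and OR51E2 had a Pearson r of 0.80 (n = 10, permutation p = 0.00508, adjusted over 21 correlations 0.0404) and a Spearman rho of 0.87 (permutation p = 0.00228, adjusted 0.0479). Without IL-15 tumours 1 and 3, the farthest from the median of OR51E1, r was 0.70 (permutation p = 0.0539). With single libraries left out, r was 0.674 to 0.878, and the call held without control tumour 2 (permutation p adjusted 0.00504) and was lost without any one of the other 9 (0.0502 to 0.245). With each value centred on its group mean r was 0.71 (permutation p adjusted 0.0307). OR51E1 and OR51A9P had an r of 0.81 (n = 10, permutation p = 0.00550, adjusted 0.0404) and a rho of 0.78 (permutation p = 0.0108, adjusted 0.0569). Without IL-15 tumours 1 and 3 its r was 0.50 (permutation p = 0.202). Leaving out the tumours farthest from the median narrows the range of OR51E1, which can itself lower r. Without IL-15 tumour 1 alone the r of OR51E1 with OR51A9P was 0.69, and without IL-15 tumour 3 alone it was 0.77. The call held without IL-15 tumour 2 or control tumour 2 and was lost without any one of the other 8 libraries (permutation p adjusted 0.0502 to 0.245), and centred on group means r was 0.62 (permutation p adjusted 0.313). OR51E2 and OR51A9P had an r of 0.71 (n = 10, permutation p = 0.0217, adjusted 0.0761) and a rho of 0.81 (permutation p = 0.00734, adjusted 0.0514), which did not pass. Without IL-15 tumour 1 and control tumour 5 their r was 0.53 (permutation p = 0.172), and centred on group means it was 0.61 (permutation p adjusted 0.213).

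**Figure D3:**
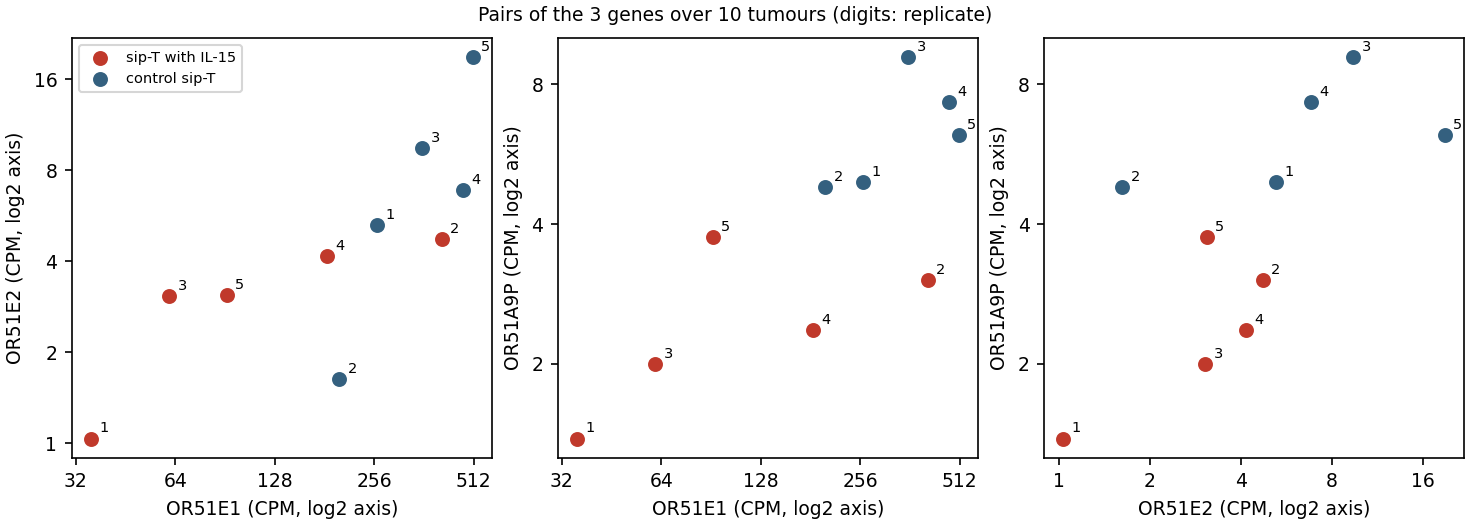
Each pair of the 3 genes over 10 tumours (CPM, log2 axes, point labels give the replicate number). IL-15 tumour 1 is lowest for all 3 genes, and control tumour 2 has a low OR51E2 for its OR51E1 level.

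The other genes of the neighbourhood were mostly silent or nearly so. Within 500 kb on either side of the 3 genes the table lists 68 genes, of which 53 have olfactory receptor symbols and 19 had no count in any library. Only 12 reached 30 counts over all libraries and 6 passed the low-count filter. Of the 3 that passed besides the receptors named above, TRIM68, a ubiquitin ligase gene, averaged 71.9 ± 12.4 CPM in IL-15 tumours and 95.2 ± 20.9 CPM in control tumours, a log2 fold change of -0.41 ± 0.17 that edgeR did not call (adjusted p = 0.758). TRIM21, which encodes a cytosolic antibody receptor, averaged 13.2 ± 2.03 and 14.1 ± 2.16 CPM (-0.09 on the log2 scale). OR51D1, whose annotated end lies 360 bp before the start of OR51E1 on the same strand, averaged 0.814 ± 0.325 CPM in IL-15 tumours and 1.12 ± 0.642 CPM in control tumours (-0.44 ± 0.47). TRIM68, TRIM21 and OR51D1 thus all lay below 0, as did 51% of all tested genes. Per length OR51D1 had a mean level of 0.242 FPKM, against the 65.0 FPKM of OR51E1 next to it.

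The remaining neighbours with at least 30 counts in total were too scarce to be tested. They were the olfactory receptor genes OR52I1 (68 counts) and OR52I2 (30), the pseudogene OR52K3P (46), the long noncoding RNA AC015689.1 (63), the matrix metalloproteinase gene MMP26 (31) and OR51C1P (41). OR51C1P lies inside the span of OR51E2 on the same strand, so reads of the pair may have been split or discarded in counting. It had 1, 3, 1, 2 and 4 counts in IL-15 tumours and 8, 1, 7, 10 and 4 counts in control tumours, with control tumour 2 again the lowest of its group. MMP26 had 1, 5, 2, 0 and 0 counts in IL-15 tumours and 7, 4, 4, 3 and 5 counts in control tumours, so no library exceeded 7 counts.

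**Figure D4:**
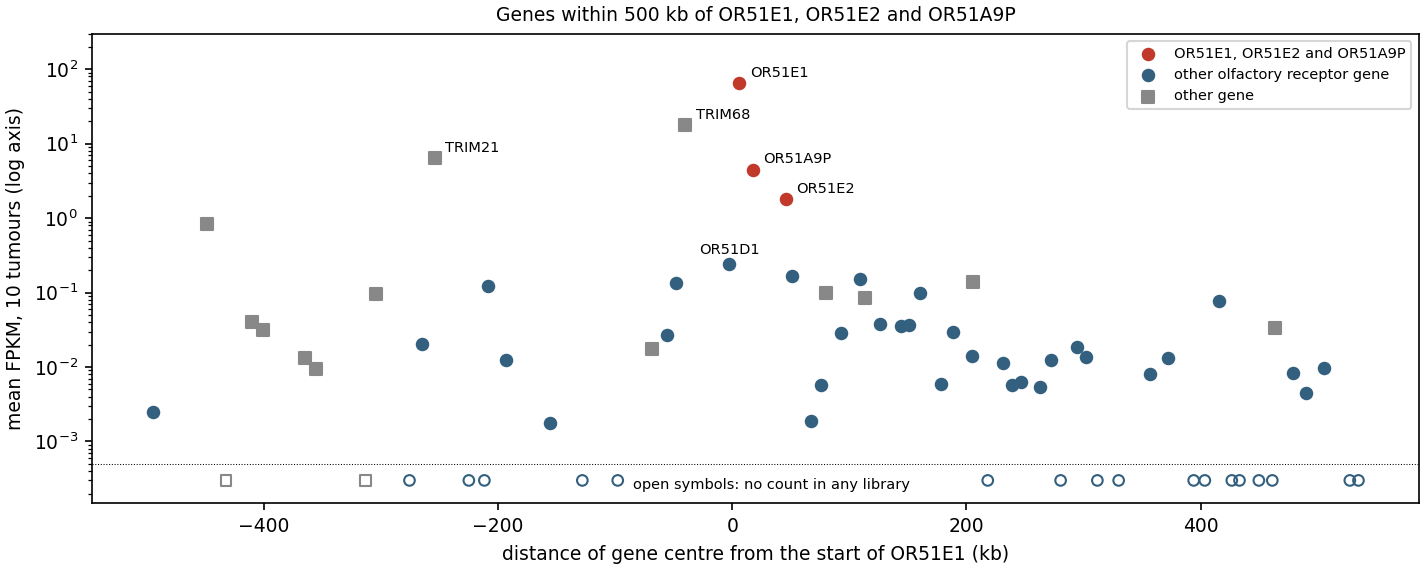
Mean FPKM over the 10 tumours (log axis) of the genes within 500 kb, against the distance of each gene's centre from the start of OR51E1 in kb. OR51E1 at 65.0 FPKM stands above every other gene of the window, with TRIM68, TRIM21, OR51A9P and OR51E2 next.

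Within the whole olfactory receptor family the 3 genes held most of the reads. Of 851 genes and pseudogenes with such symbols, 479 had no count in any library and 748 had under 10 counts in all. OR51E1 supplied 82.9% of the 48756 family counts, from 40.5% in IL-15 tumour 1 to 89.8% in control tumour 4, and the 3 genes together 86.1%. Between 96 and 182 family members had at least 1 count in a library, most of them at a level of a few reads. The filter passed 15, of which 7 are protein coding, and edgeR called 0 of them.

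The 12 olfactory receptor entries that passed besides the 3 genes did not share a direction. Of these, 5 lay below 0 and 7 above, and their median was 0.03 on the log2 scale, against -0.01 over all tested genes. The 5 below 0 all lie on chromosome 11, as does OR7E128P, which was near 0. Every entry on another chromosome lay above 0. This split by chromosome was seen in these values and was not tested. The most abundant, the pseudogene OR7E47P on chromosome 12, averaged 7.54 CPM in IL-15 tumours and 4.53 CPM in control tumours (0.74 ± 0.36). A second entry of that symbol, annotated as protein coding, overlaps it on the same strand, so reads of the pair may have been split or discarded. That entry did not pass the filter and averaged 1.29 CPM in IL-15 tumours and 0.318 CPM in control tumours. The pseudogene OR7E14P averaged 3.38 and 4.55 CPM in IL-15 and control tumours (-0.42), and OR2A7 2.73 and 1.95 CPM (0.48). OR7E128P averaged 1.70 and 1.69 CPM (0.01) and OR2A20P 1.79 and 1.599 CPM (0.16). The OR7E and OR2A entries belong to groups of near-identical copies, so their counts are uncertain. OR56A3, also on 11p15, had the lowest value of the family, -1.67 ± 0.53, at 0.288 CPM in IL-15 tumours and 0.931 CPM in control tumours, and is named here because its value was seen.

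**Figure D5:**
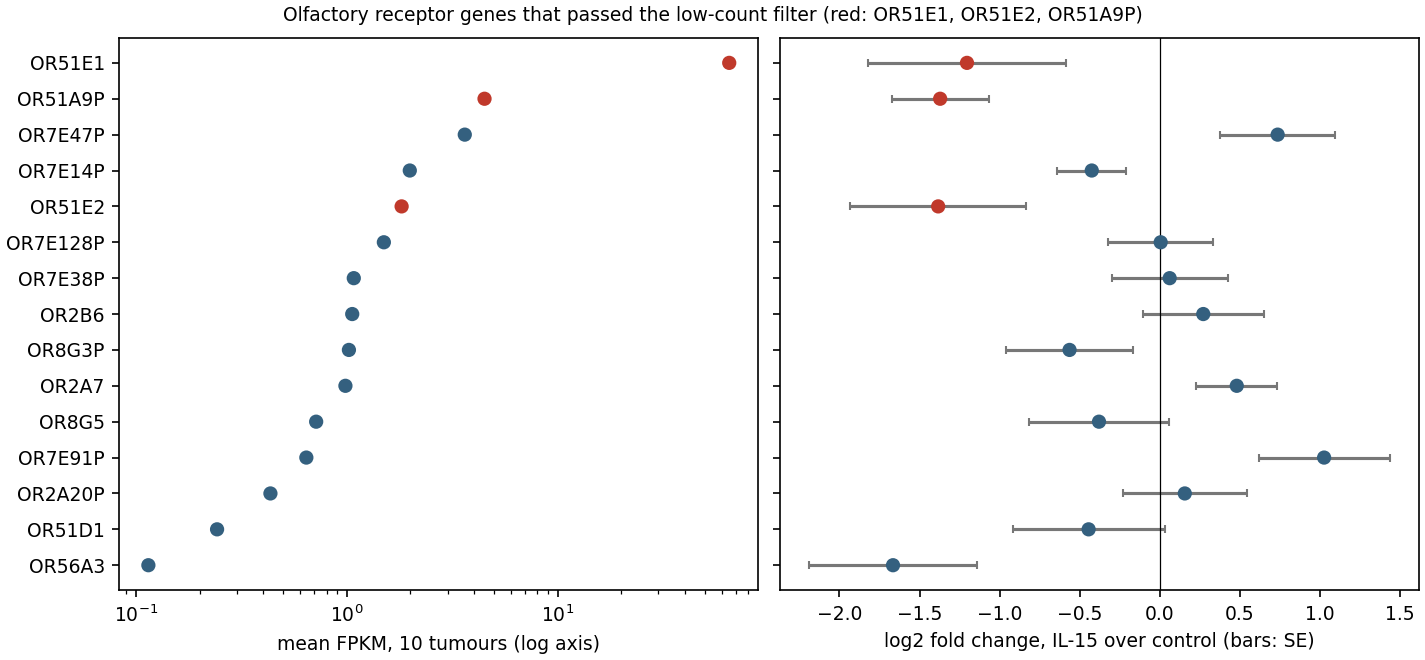
Mean FPKM over the 10 tumours (log axis, left) and log2 fold change of IL-15 over control with its SE (right) for the 15 olfactory receptor genes and pseudogenes that passed the low-count filter, ordered by level. OR51E1 stands more than 10-fold above the next entry, and 8 of the 15 lie below 0.

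The machinery that olfactory receptors use in the nose was present only in part. Of 14 genes for olfactory signal transduction, 7 passed the filter, 4 above and 3 below 0 (median 0.13), and edgeR called 0. GNAS, the ubiquitous stimulatory G protein subunit closely related to GNAL, averaged 988 ± 48.5 CPM in IL-15 tumours and 1167 ± 193 CPM in control tumours (-0.24 ± 0.14). GNB1, a G protein β subunit, averaged 480 and 531 CPM (-0.14). ADCY3, the adenylyl cyclase of olfactory cilia, averaged 20.99 ± 4.36 CPM in IL-15 tumours and 28.8 ± 6.67 CPM in control tumours (-0.46 ± 0.21, edgeR adjusted p = 0.758), and RIC8B, a chaperone of the GNAL product, 23.9 and 18.9 CPM (0.34). GNAL itself averaged 2.82 ± 0.537 and 2.35 ± 1.11 CPM. The channel genes were at the limit of detection: CNGA2 had 0 counts in every library, CNGA4 had 7 counts over the IL-15 libraries and 9 over the control libraries, and CNGB1 10 and 14.

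The RTP and REEP families, some members of which carry olfactory receptors to the cell surface, split in the same way. RTP1, RTP2 and RTP3 had no count in any library, and RTP4 had 10 counts over the IL-15 and 13 over the control libraries. REEP1 did not pass the filter either, with 43 counts over the IL-15 and 24 over the control libraries. The REEP genes that passed were abundant in both groups: REEP6 averaged 109 ± 8.23 CPM in IL-15 and 110 ± 22.8 CPM in control tumours, REEP5 173 and 190 CPM, REEP4 74.3 and 73.4 CPM, and REEP3 111 and 130 CPM. Of the 11 RTP and REEP genes listed 4 passed the filter, 1 above and 3 below 0 (median -0.07), and 0 were called.

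All 7 genes for receptor desensitisation passed the filter, 3 above and 4 below 0 (median -0.21), and edgeR called 0. ARRB1, a β-arrestin, averaged 32.0 ± 4.27 CPM in IL-15 tumours and 49.4 ± 16.3 CPM in control tumours (-0.62 ± 0.20), and GRK2, a kinase that marks active receptors for arrestin, 243 ± 45.2 and 338 ± 89.0 CPM (-0.47 ± 0.20), each with an edgeR adjusted p of 0.758. GRK6 had a log2 fold change of -0.27 and the second β-arrestin, ARRB2, one of 0.02.

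The prostate identity of the tumours did not move in 1 direction. Of 17 prostate lineage genes, all of which passed, 10 lay above and 7 below 0 (median 0.04), and edgeR called 0. KLK3, which encodes prostate-specific antigen, averaged 5584 ± 1336 CPM in IL-15 tumours and 4743 ± 1071 CPM in control tumours. STEAP1, a metalloreductase family member, averaged 292 ± 25.97 and 287 ± 56.4 CPM, and KLK4 254 ± 32.7 and 382 ± 78.1 CPM (-0.59 ± 0.16, edgeR adjusted p = 0.758). Of the 5 neuroendocrine markers only SYP passed, at 2.98 and 2.82 CPM, and CHGA had 24 counts over the libraries of each group.

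Correlations of the 3 genes with 4 prostate genes, 12 pairs in all, ran from -0.46 to 0.79, and 1 passed an adjusted p of 0.05. OR51A9P went with FOLH1, the gene of prostate-specific membrane antigen, at an r of 0.79 (n = 10, permutation p = 0.00769, adjusted 0.0404) and a rho of 0.81 (permutation p adjusted 0.0514), and without control tumours 2 and 3 r was 0.78 (permutation p = 0.0210). Centred on group means that r was 0.30 (permutation p adjusted 0.742): FOLH1 averaged 480 ± 53.1 CPM in IL-15 tumours and 729 ± 146 CPM in control tumours. The call held without control tumour 2 and was lost without any one of the other 9 libraries (permutation p adjusted 0.0502 to 0.245). With OR51E1 the r of FOLH1 was 0.55 (n = 10, permutation p = 0.0973, adjusted 0.204) with a rho of 0.59, and 0.68 without control tumours 2 and 3. With OR51E2 it was 0.44 (n = 10, permutation p = 0.197, adjusted 0.328) with a rho of 0.54. Control tumour 2 set that value: without it r was 0.81 (n = 9, permutation p adjusted 0.0340), and without control tumours 2 and 3 it was 0.90 (permutation p = 0.00465). Centred on group means r was 0.04 for OR51E1 and 0.07 for OR51E2.

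TRPV6, a calcium channel gene, passed the threshold with OR51A9P only after centring. Its r with OR51A9P was 0.63 over the tumours (n = 10, permutation p = 0.0543, adjusted 0.130) with a rho of 0.67 (permutation p = 0.0382), and 0.26 without IL-15 tumour 1 and control tumour 3. After centring on group means it was 0.83 (permutation p adjusted 0.0307). With OR51E2 the r of TRPV6 was 0.71 (n = 10, permutation p = 0.0204, adjusted 0.0761) with a rho of 0.75, and with OR51E1 0.62 (permutation p = 0.0556, adjusted 0.130) with a rho of 0.68. Without the same tumours these values were 0.51 for OR51E2 and 0.40 for OR51E1. For KLK3 and HOXB13 no pair passed, the highest being HOXB13 with OR51A9P at an r of 0.68 (n = 10, permutation p = 0.0354, adjusted 0.106) and a rho of 0.60. With all 10 libraries none of these 4 genes was correlated with either receptor past the threshold, but FOLH1 with OR51E2 was without control tumour 2.

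The genes whose levels followed each receptor most closely were sought among 9735 tested protein-coding genes with a mean of at least 10 CPM. OR51E1, itself one of these, was compared with the other 9734. The search is a description over 10 libraries. For OR51E1 the highest r belonged to DUSP4, a MAP kinase phosphatase gene, at 0.94, which averaged 104 ± 75.3 CPM in IL-15 tumours and 171 CPM in control tumours. C1orf21 (0.92), ECI2 (0.91), which encodes an enoyl-CoA isomerase of fatty acid oxidation, PPFIBP2 (0.89) and SMAGP (0.88) came next, and the lowest were OTUD7B (-0.92), PURA (-0.87) and ZNF79 (-0.87). An r above 0.8 was found for 53 genes and one below -0.8 for 25. For OR51E2 the highest was GNAS, at an r of 0.91 and a rho of 0.96, followed by DLG3 (0.88), NR1H2 (0.88), TBC1D10A (0.87) and ANKRD39 (0.86), and the lowest were DAB2IP (-0.91), TRIM69 (-0.89) and AMIGO1 (-0.89). Here 20 genes lay above 0.8 and 16 below -0.8. GNAS and OR51E2 thus ranked alike over the tumours while GNAS differed by far less between the groups. These values share library and depth with the receptor levels, and the highest and lowest of so many genes are extreme by selection.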

How the data were processed

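Tumour RNA was isolated with TRIzol for Illumina sequencing, per the labels' protocols. Among the tools in the submitters' processing notes are HISAT2 2.0.5 and featureCounts 1.5.0-p3, with the build hg38 and with no roles or settings. The authors deposited raw counts per gene and FPKM values (count per gene length and library total). The total behind the deposited FPKM was 1.01 to 1.24 times the summed counts, the same for all genes of any one library, so FPKM served for levels between genes and counts for tests. A deposited table of group means was not used.

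The low-count filter was filterByExpr of edgeR 4.0.16 (minimum count 10, R 4.3.3), the scaling TMM (factors 0.923 to 1.10) and the test edgeR's robust quasi-likelihood F test, with Benjamini-Hochberg adjustment over all 16913 tested genes at 0.05. The common biological coefficient of variation was 0.306. Groups came from the treatment labels, and all 45 pairs of libraries differed by more than sampling noise (chi-square over its degrees of freedom 17.9 to 78.5). Correlations used log2(CPM + 0.1) and 100000 two-sided permutations, adjusted over 21 relations, of which 15 are described, singly or within a range. Some genes that the rule for named genes takes, and the relations with them, are left out here. Alternatives were other scalings, filters, DESeq2 1.42.0, limma 3.58.1, FPKM, a replicate block and each library left out. DESeq2 with each library left out was an alternative chosen after seeing the data.

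The 3 genes and the gene lists were chosen with earlier results of these data known. Named genes were the 3 genes, up to 4 most abundant members of each list, the 5 most abundant other olfactory receptor entries, neighbours with at least 30 counts, the correlation partners, and the 5 most and 3 least alike protein-coding genes of each receptor. Tested on simulated data drawn for this comparison, with 16553 genes tested, edgeR recovered 46.3% of 95 2-fold and 87.4% of 95 4-fold changes, with 8 false calls.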

Additional observations from a re-analysis of the deposited data

How the results depend on the processing

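No setting reversed the log2 fold change of OR51E1, OR51E2 or OR51A9P. Genes called by edgeR numbered 0 in all settings but the one with no filter (1, MALINC1, adjusted p = 0.00632), and DESeq2 called 15. Under the other settings the adjusted p was 0.654 to 0.803 for OR51E1, 0.395 to 0.803 for OR51E2 and 0.0166 to 0.779 for OR51A9P, whose DESeq2 value was -1.38 (adjusted p = 0.0166). OR51A9P has no value with protein-coding genes only. With each library left out, the edgeR values were -1.94 to -0.95, -1.65 to -0.84 and -1.56 to -1.22 for OR51E1, OR51E2 and OR51A9P. Those of DESeq2 were -1.96 to -0.94, -1.65 to -0.86 and -1.57 to -1.22. Same-numbered libraries did not pair (correlations of deviations 0.26, 0.01, -0.17, -0.22 and -0.08, with 1 of 5 IL-15 libraries correlating best with its own number), and with the replicate number as a block 0 genes were called, with -1.75 for OR51E1, -1.22 for OR51E2 and -1.40 for OR51A9P.

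With library size alone, r was 0.78 for OR51E1 with OR51E2 and 0.78 for OR51E1 with OR51A9P, neither past the threshold, and centring brought the second pair to 0.62. With each library left out r ranged over 0.674 to 0.878 for OR51E1 with OR51E2, 0.687 to 0.895 for OR51E1 with OR51A9P and 0.55 to 0.835 for OR51E2 with OR51A9P. The call was lost without any one of 9 libraries for the first pair and of 8 for the second (adjusted p up to 0.245 in both). The third pair passed without control tumour 2 alone (r 0.84, permutation adjusted p = 0.0246, n = 9). The number of partner pairs past the threshold, 1, was 0 with library size alone, and 0 to 2 with a library left out. After centring it was 1, TRPV6 with OR51A9P in place of FOLH1 with OR51A9P. After centring r turned to -0.18 for OR51E1 with HOXB13 and -0.0696 for OR51E2 with HOXB13. OR51E2 with KLK3 turned to -0.0791 with library size alone and ranged over -0.293 to 0.227 with a library left out. Mean olfactory receptor genes per library were 133.2 by at least 1 count and 56.4 at 0.1 FPKM or more. The causes were not tested. With 5 libraries a group, edgeR missed most simulated 2-fold changes, so differences of that size may go uncalled.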

Other observations

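OR51A9P was compared with other genes in the same way, outside the rule for named genes and with its values seen. Its highest r over the 10 libraries belonged to FTH1, the ferritin heavy chain gene on chromosome 11, at 0.92 (rho 0.98), and its lowest to IQCG at -0.95 (rho -0.98). FTH1 averaged 638 ± 95.02 CPM in IL-15 tumours and 974 CPM in control tumours. Of the genes compared, 85 had an r above 0.8 with OR51A9P and 43 one below -0.8. Centred on group means, r was 0.82 for FTH1 and -0.87 for IQCG. These are descriptions over 10 libraries that share depth and group differences with the pseudogene.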
